A study of Bos taurus with 16 samples.

Results

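The genes described are 2 Janus kinases, JAK1 and JAK2, the transcription factors STAT3, STAT5A, STAT5B and STAT6, and 4 inhibitors, SOCS1, SOCS2, SOCS3 and CISH. They were found on the bovine array by their gene symbol, and all 10 genes were present, with 11 of the 21475 probes, because STAT5A had 2. RNA was measured in CD14+ cells sorted from the endometrium and from the cardiac blood of 4 pregnant cows (Bos taurus), collected at slaughter with no stated treatment, at day 164 (animal 1), day 239 (animal 2), day 242 (animal 3) and day 248 (animal 4) of pregnancy. The age of the cows is not given in the sources used here. The endometrium lay between the placentomes of the horn that held the fetus and was dispersed with collagenase, which the blood cells were not, and the study's methods gave a lower purity for the endometrial cells than for the blood cells. Both tissues of an animal were hybridized to the same 2 arrays with 2 colors, and the arrays are technical replicates, so n is 4 animals throughout.

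Cytokines and hormones of the prolactin and growth hormone family bind receptors that have no kinase of their own. Janus kinases bound to the receptor then phosphorylate it, and STAT proteins dock there, are phosphorylated and move to the nucleus as transcription factors. STAT3 serves the IL-6 and IL-10 families, STAT5A and STAT5B serve prolactin, growth hormone and GM-CSF, and STAT6 serves IL-4 and IL-13. SOCS1, SOCS2, SOCS3 and CISH are themselves induced by STATs and damp the signal.

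The probes that carried these values were 60 bases long, and the last 30 bases of 6 of them are shown, because the difference between the tissues was clearest for STAT5B, differed in size between the probes of STAT5A, and was split among animals for SOCS2 and CISH. Capitals mark the polyadenylation signal AATAAA and the AU-rich pentamer ATTTA, both searched in the strand of the probe.
STAT5B: gccagaggagttacttttgtggatgtttta
STAT5A brighter probe: cttttgtactttgtacataggctacacatt
STAT5A dimmer probe: tgcctttgcaggcagcccatgtacacatgt
JAK1: tttactctttatacaAATAAAtatatggag
SOCS2: ttATTTActgctgttactatttgattagaa
CISH: tttctgtaatgacAATAAAattgtaccttt
AATAAA stood in 2 of the 11 probes, those of JAK1 and CISH, and in 11.9% of all 21256 probes of 60 bases (3.91% on the other strand). ATTTA stood in 1, that of SOCS2, and in 7.75% of all (10.4% on the other strand). On the other strand 4 member probes held AATAAA and 1 held ATTTA, that of JAK1, in letters that overlap its AATAAA. The longest run that the probe of STAT5B shared with a probe of STAT5A was 7 bases for the brighter and 6 for the dimmer probe. STAT5B, STAT5A and STAT3 follow each other in the bovine gene table, with no other protein-coding gene between them. GC content lay between 25% (CISH) and 71.7% (SOCS3).

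All 11 probes were well above background in all 8 channels of both tissues. Values are log2 intensities that the study normalized by quantiles, averaged over the arrays of an animal, and a log2 ratio is endometrium minus blood within the animal. Levels are compared between tissues for the same probe and not between probes. In RNA of a sorted preparation, fewer cells of a type and less RNA per cell cannot be told apart.

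STAT5B was lower in endometrial than in blood CD14+ cells of every animal, with a fold change of 3.56. In blood its level was 10.13, 9.84, 8.98 and 10.76 in animals 1 to 4, and in endometrium it was 7.83, 8.02, 7.14 and 9.39. The tissues overlapped over all animals, because endometrium of animal 4 lay above blood of animal 3, but within each animal blood was higher. The log2 ratios were -2.30, -1.83, -1.84 and -1.36, with a mean of -1.83 ± 0.45 (SE, n = 4) and a 95% interval from -2.89 to -0.77. Every SE and 95% interval in this text is limma's, which pools the spread over all probes tested. It is not the SE of the 4 ratios alone, whose SD was 0.38 for STAT5B. It passed limma's test at an unadjusted p of at most 0.05 with a fold change over 2, but not after adjustment over all probes (limma, Benjamini-Hochberg adjusted p = 0.153). When the 8 arrays were fitted with the dye and with the animal as a random effect, it passed, at a limma adjusted p of 0.0431. That fit takes each array as a value, although the 2 arrays of an animal are technical replicates, so its test counts more values than the 4 animals. From the scanner's median intensities with normexp the log2 ratio was -1.17.

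STAT3 was the other member to pass at the unadjusted p, with a fold change of 2.29 in favor of blood. Its level in blood was 13.23, 13.85, 13.59 and 14.01 in animals 1 to 4, a narrow range of 0.78. In endometrium it was 11.76, 12.66, 11.73 and 13.74, so that animals 1 and 3 were lowest and animal 4 was close to its blood. The mean log2 ratio was -1.20 ± 0.48 (SE, n = 4; limma adjusted p = 0.299). Without animal 1, 2 or 3 in turn the log2 ratio was -1.10, -1.20 and -0.98, and STAT3 no longer passed at the unadjusted p.

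STAT5A, the close relative of STAT5B, had log2 ratios below 0 in every animal with both probes, and neither probe passed either rule. The brighter probe had 12.84, 14.70, 14.39 and 15.34 in blood and 12.82, 13.65, 13.41 and 15.01 in endometrium of animals 1 to 4. Its log2 ratio was close to 0 in animal 1, at -0.02, and lowest in animal 2, at -1.06. The dimmer probe had 6.37, 7.41, 7.24 and 9.54 in blood and 5.57, 6.06, 6.86 and 7.90 in endometrium, with its lowest log2 ratio in animal 4, at -1.63. The means were -0.59 ± 0.46 and -1.04 ± 0.47 (SE, n = 4; limma adjusted p = 0.562 and 0.332). The 2 probes thus shared their direction and ranked the animals differently. Both showed the same animals as lowest (animal 1) and highest (animal 4) in each tissue. The mean log2 ratio of the dimmer probe was -0.37 from the scanner's median intensities with normexp. It passed at the unadjusted p with no filter on dim probes, by the analysis of variance of the methods, and without animal 3 (-1.26).

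STAT6, which transmits IL-4 and IL-13 signals in macrophages, had 5.90, 5.56, 6.81 and 7.14 in blood and 4.99, 5.76, 6.26 and 5.95 in endometrium. Endometrium was lower in 3 of 4 animals and higher in animal 2, with a mean log2 ratio of -0.61 ± 0.47 (SE, n = 4; limma adjusted p = 0.562), and with one of -0.14 from the scanner's median intensities with normexp. Technical replicates of STAT6 in blood were up to 0.72 apart, more than for any other member probe.

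JAK1, which pairs with the IL-6, interferon and common gamma chain receptors, was among the probes with the least spread. It had 15.03, 15.66, 15.61 and 15.78 in blood and 14.61, 15.05, 14.49 and 15.40 in endometrium. The log2 ratios lay between -1.12 and -0.39, below 0 in every animal, with a mean of -0.63 ± 0.45 (SE, n = 4; limma adjusted p = 0.519).

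JAK2, the kinase of the prolactin, growth hormone and GM-CSF receptors, moved in opposite ways in different animals. It had 11.97, 10.05, 10.10 and 10.15 in blood, where animal 1 stood far above the others, and 10.19, 10.62, 11.68 and 9.37 in endometrium. The log2 ratios were -1.78, 0.57, 1.58 and -0.77, with a mean of -0.10 ± 0.65 (SE, n = 4; limma adjusted p = 0.962). The 95% interval ran from -1.63 to 1.43, and the sign of the mean changed with the processing.

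**Figure D1:**
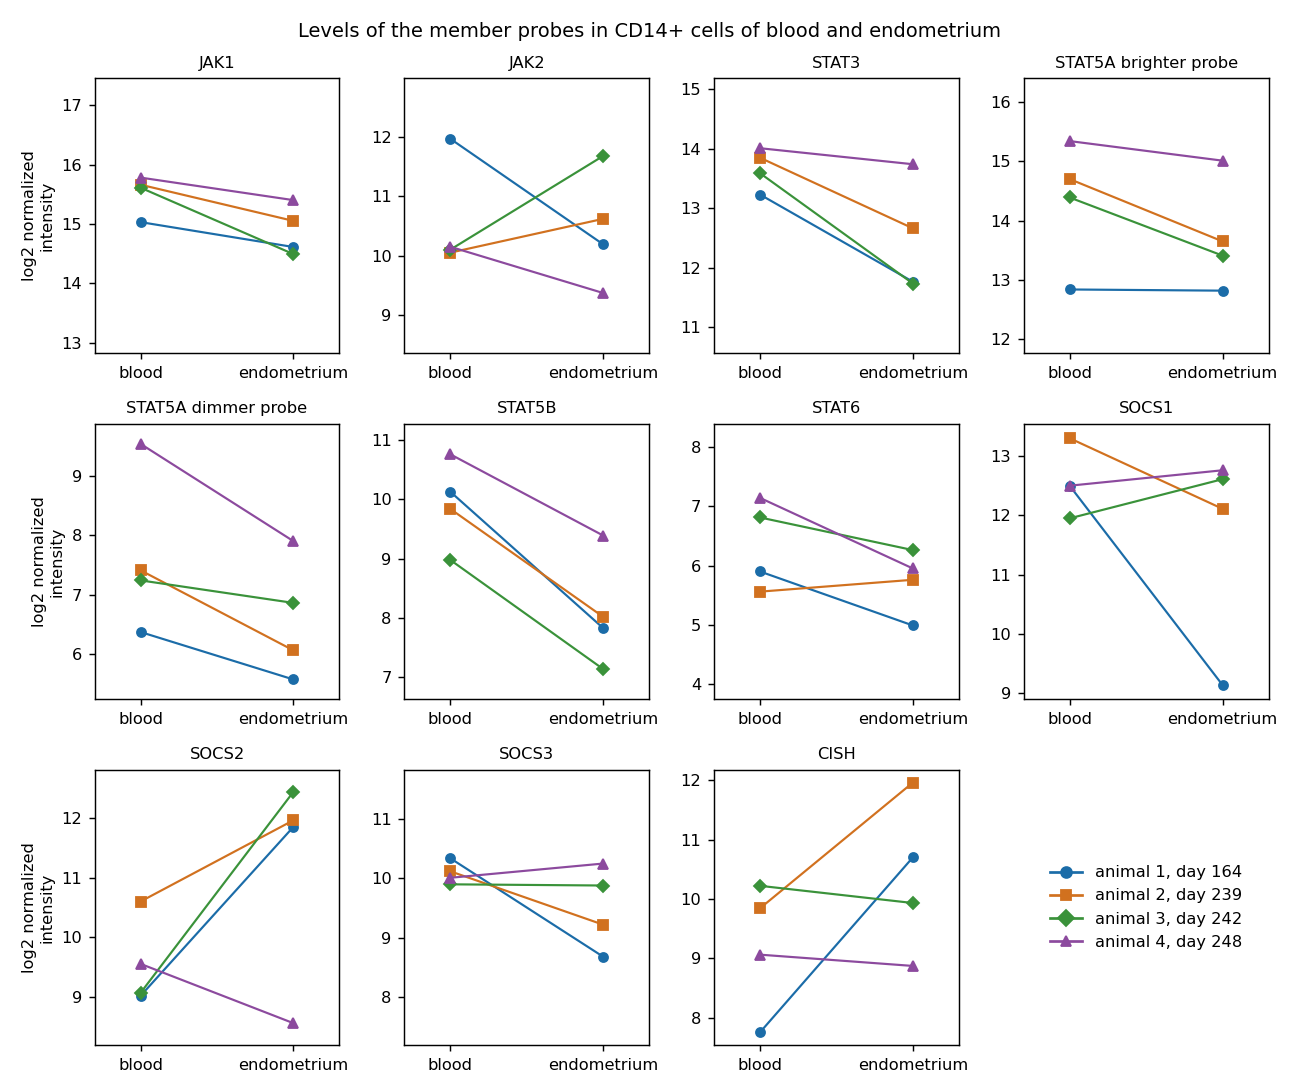
Log2 normalized intensity of each member probe in blood and endometrial CD14+ cells, 1 line for each animal (mean of 2 technical replicates), with every panel spanning the same number of log2 units. The lines of STAT5B fall in all 4 animals, from 8.98 to 10.76 in blood to 7.14 to 9.39 in endometrium, while the lines of JAK2, SOCS1, SOCS2 and CISH rise in some animals and fall in others.

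The inhibitors had no common direction. SOCS1, which binds Janus kinases directly and limits interferon signaling, had 12.50, 13.30, 11.95 and 12.50 in blood, within a range of 1.36. In endometrium it had 9.14, 12.11, 12.61 and 12.76, and animal 1 was by far the lowest. Its log2 ratios were -3.35, -1.19, 0.66 and 0.26, with a mean of -0.91 ± 0.73 (SE, n = 4; limma adjusted p = 0.580). Without animal 1 the mean was -0.09, and without animal 3 it was -1.43.

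SOCS3, the inhibitor of gp130 receptors, had nearly the same level in the blood of all animals, 10.34, 10.12, 9.90 and 10.01, a range of 0.44 that was the narrowest of the 11 probes. In endometrium it had 8.68, 9.22, 9.88 and 10.25. The log2 ratios were -1.66, -0.90, -0.03 and 0.23, so that SOCS3 resembled SOCS1 in being below blood in animals 1 and 2 and near or above it in animals 3 and 4. The mean was -0.59 ± 0.52 (SE, n = 4; limma adjusted p = 0.613).

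SOCS2, which limits growth hormone signaling and is a target of STAT5, was the member with the largest mean ratio in favor of endometrium. It had 9.01, 10.60, 9.06 and 9.55 in blood and 11.86, 11.97, 12.45 and 8.55 in endometrium. Endometrium was higher in animals 1, 2 and 3, by 2.85, 1.36 and 3.39, and lower in animal 4, at -0.99. The mean log2 ratio was 1.65 ± 0.77 (SE, n = 4; limma adjusted p = 0.347), with a 95% interval from -0.18 to 3.48. Without animal 3 it was 1.07, and without animal 4 it was 2.53 and passed at the unadjusted p (limma adjusted p = 0.172).

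CISH, a further STAT5 target that binds cytokine receptors, had 7.75, 9.84, 10.22 and 9.06 in blood and 10.70, 11.96, 9.93 and 8.87 in endometrium. It was higher in endometrium of animals 1 and 2, by 2.95 and 2.12, and slightly lower in animals 3 and 4, at -0.29 and -0.18. The mean log2 ratio was 1.15 ± 0.69 (SE, n = 4; limma adjusted p = 0.449), and 0.55 without animal 1. In animals 1 and 2, the log2 ratio of CISH thus exceeded that of SOCS3 by 4.61 and 3.02, and that of SOCS1 by 6.30 and 3.31. In animals 3 and 4 it was below that of SOCS3 by less than 1 log2 unit, with differences of -0.26 and -0.42. These contrasts between animals were noticed in the values and were not tested, and the day of pregnancy cannot be told apart from the animal.

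**Figure D2:**
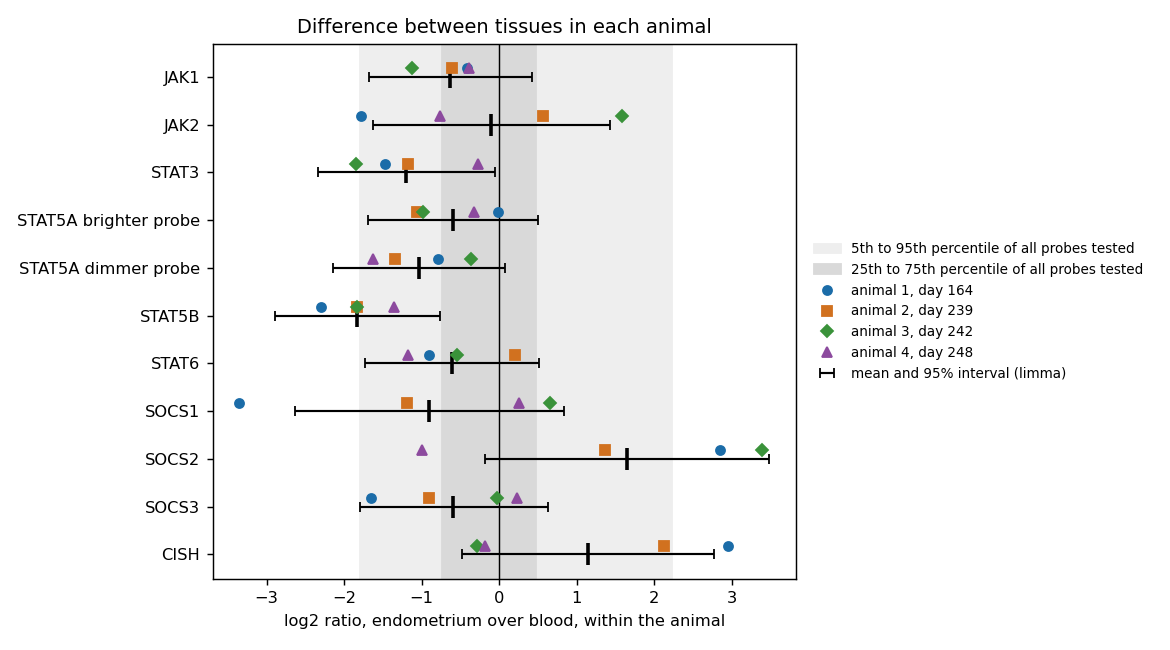
Log2 ratio of endometrium over blood for each member probe, with a symbol for each animal and the mean with its 95% interval from limma, over bands that hold the central part of all 16654 probes tested. The interval excludes 0 for STAT5B (-2.89 to -0.77) and STAT3 (-2.34 to -0.05), and the animals scatter most for SOCS2 and SOCS1.

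Over all members, 0 of 11 probes had an adjusted p of 0.05 or less together with a fold change over 2, a rule that 1.35% of the 16654 probes tested passed. At an unadjusted p of at most 0.05 with the same fold change, 2 of the 11 were higher in blood, where 8.05% of all probes passed, and 0 were higher in endometrium, where 7.98% passed. Of the 11 probes, 5 were lower in endometrium in every animal (JAK1, STAT3, STAT5B and both of STAT5A), against 15.2% of all probes, and 0 were higher in every animal, against 9.82%. With 1 probe for each gene, 8 of 10 genes had a mean log2 ratio below 0 and the median was -0.60, beside 56.7% of probes below 0 and a median of -0.14 over all probes. The members were chosen with earlier results of these data known. From these same arrays, the study had listed STAT3, STAT5A and STAT5B as Jak-STAT genes overexpressed in blood, so these shares are a description. A 2-sided exact permutation test over the signs of 4 ratios has a smallest possible p of 0.13, and each of the 5 probes with a single direction had that value.

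The technical replicates, 1 on each of 2 arrays, gave nearly the same ratios. Over 44 pairs of ratios (11 probes in 4 animals) the median gap was 0.10 and the largest 0.43, in SOCS2 of animal 4, and the sign was the same in 43. The exception was SOCS3 in animal 3, with 0.02 and -0.08. The SD of the log2 ratio over the animals ran from 0.34 (JAK1) to 1.96 (SOCS2). For JAK1 the gaps between arrays, up to 0.33, were about as large as that SD.

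**Figure D3:**
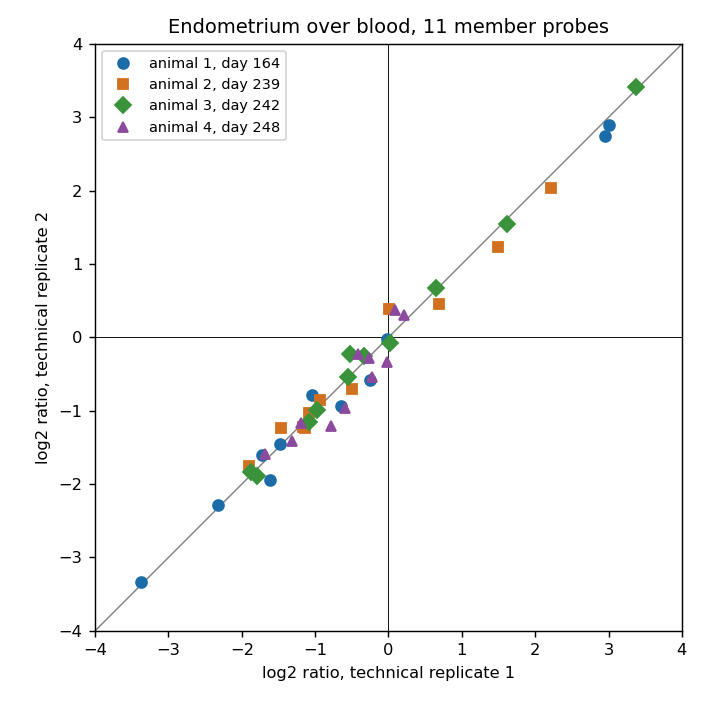
Log2 ratio of endometrium over blood in technical replicate 2 against technical replicate 1, for 11 member probes in 4 animals, with the line of equality. The replicates of a point differ by at most 0.43, while the means over both run from -3.35 to 3.39.

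The other genes of the pathway were grouped by role, with the brightest probe of each gene. Of the 6 other kinases and factors, 2 were lower in endometrium at the unadjusted p: STAT4, the IL-12 factor (log2 ratio -1.97 ± 0.64, limma adjusted p = 0.231), and IRF9, the DNA-binding partner of STAT2 in the interferon response (-1.76 ± 0.73, limma adjusted p = 0.303). STAT4, IRF9 and STAT2 were below blood in 4 of 4 animals, 3 of the 6 genes beside 15.2% of all probes. The median of the 6 genes was -0.78.

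Of 25 receptors tested, 3 were higher and 6 lower in endometrium at the unadjusted p, and 0 passed the adjustment. PRLR, the prolactin receptor that signals through JAK2 and STAT5, had 7.47, 10.70, 16.41 and 13.58 in endometrium and 5.75, 6.59, 9.17 and 7.56 in blood. It was higher in endometrium of every animal, by 1.72 to 7.24 on the log2 scale (mean 4.77 ± 0.90, limma adjusted p = 0.0676). IL11RA, the IL-11 receptor, had a mean of 2.30 ± 0.70 (limma adjusted p = 0.212). LEPR, the leptin receptor, was not well above background in blood and was in 6 of 8 channels of endometrium. As a mean over the 4 animals it was at least 2.93-fold higher in endometrium (limma adjusted p = 0.215, as fitted). In animal 2 it did not rise, with a log2 ratio of -0.09.

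The receptors lower in endometrium included IFNAR2 and IFNAR1, the pair that binds type I interferons (-2.22 ± 0.73 and -2.12 ± 0.60, limma adjusted p = 0.234 and 0.191), and IL12RB2 (-2.11 ± 0.80, limma adjusted p = 0.275). In animal 4, IL12RB2 was higher in endometrium, with a log2 ratio of 0.49, and IFNAR2 was at -0.01. IL4R, which leads to STAT6, was below blood in every animal, with -1.66 ± 0.57 (limma adjusted p = 0.244). IL6ST, the gp130 chain upstream of STAT3, had 1.22 ± 0.86, with 4.43 in animal 3 and -1.0 in animal 2. CSF2RB, the shared chain for GM-CSF upstream of STAT5, had -1.03 ± 0.64, and its second probe had the opposite sign.

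Among 17 ligands tested, CSH1, placental lactogen, passed the adjusted test (log2 ratio 5.45 ± 0.47, limma adjusted p = 0.00733), and 4 were lower in endometrium at the unadjusted p, among them IL10 (-2.20 ± 0.79), CLCF1 (-1.99 ± 0.61) and IL24 (-1.97 ± 0.80). In endometrium, IL24 exceeded background clearly in 2 of 8 channels. In animal 4, IL10 and IL24 were higher in endometrium, with log2 ratios of 0.36 and 0.91. CSH1 also belongs to the list of trophoblast markers. Of 14 other inhibitors, 3 were lower at the unadjusted p, namely PTPN1, a phosphatase of Janus kinases (-2.18 ± 0.71), USP18 (-2.07 ± 0.74) and PIAS2 (-1.98 ± 0.51). Of 13 adaptors and coactivators, 4 were lower, led by PIK3R5 (-2.43 ± 0.48, limma adjusted p = 0.0866), PIK3R3 (-1.71 ± 0.55) and GRB2 (-1.62 ± 0.56). Over the 5 lists together, 4 of 75 genes were higher and 19 lower at the unadjusted p, beside 7.98% and 8.05% of all probes, with a median of -0.43 and 64% below 0, beside -0.14 and 56.7% over all probes. The lists were chosen with earlier results of these data known. From these same arrays, the study had already listed PIAS2, IFNAR1, CLCF1, GRB2, PIK3R3 and PIK3R5 as Jak-STAT genes overexpressed in blood. The shares are thus a description, and an excess in the pathway was not tested.

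Genes listed as targets of the STATs had medians near 0. The medians were 0.08 for 18 targets of STAT3, 0.15 for 11 of STAT5 and 0.16 for 12 of STAT6. The lists do not separate genes that a STAT induces from genes that it represses, and BCL6 is in 2 of them. Among the STAT3 targets FGB, the fibrinogen beta chain (4.37 ± 0.89), and CCL2, a monocyte chemokine (2.41 ± 0.52), were higher in endometrium, and BCL3 (-2.57 ± 0.77), IL10 and IL4R were lower, all at the unadjusted p. Among the STAT5 targets IGF1 was higher (2.95 ± 0.89, well above background in 2 of 8 blood channels), and IL2RA (-1.99 ± 0.80), BCL6 (-1.73 ± 0.58) and DUSP5 (-1.62 ± 0.66) were lower. Among the STAT6 targets CCL22 and CCL24, chemokines of alternatively activated macrophages, passed the adjusted test, with 4.86 ± 0.50 (limma adjusted p = 0.00875) and 4.06 ± 0.44 (limma adjusted p = 0.00978). In blood, CCL22 exceeded background clearly in 2 of 8 channels, so its ratio was taken mostly against values not well above background. CCL24 was higher in endometrium by 4.16, 4.16, 3.75 and 4.15 in animals 1 to 4. KLF4 was higher at the unadjusted p (2.16 ± 0.63), and BCL6, ALOX15 (-1.70 ± 0.53, clearly above background in endometrium in 2 of 8 channels) and IL4R were lower.

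**Figure D4:**
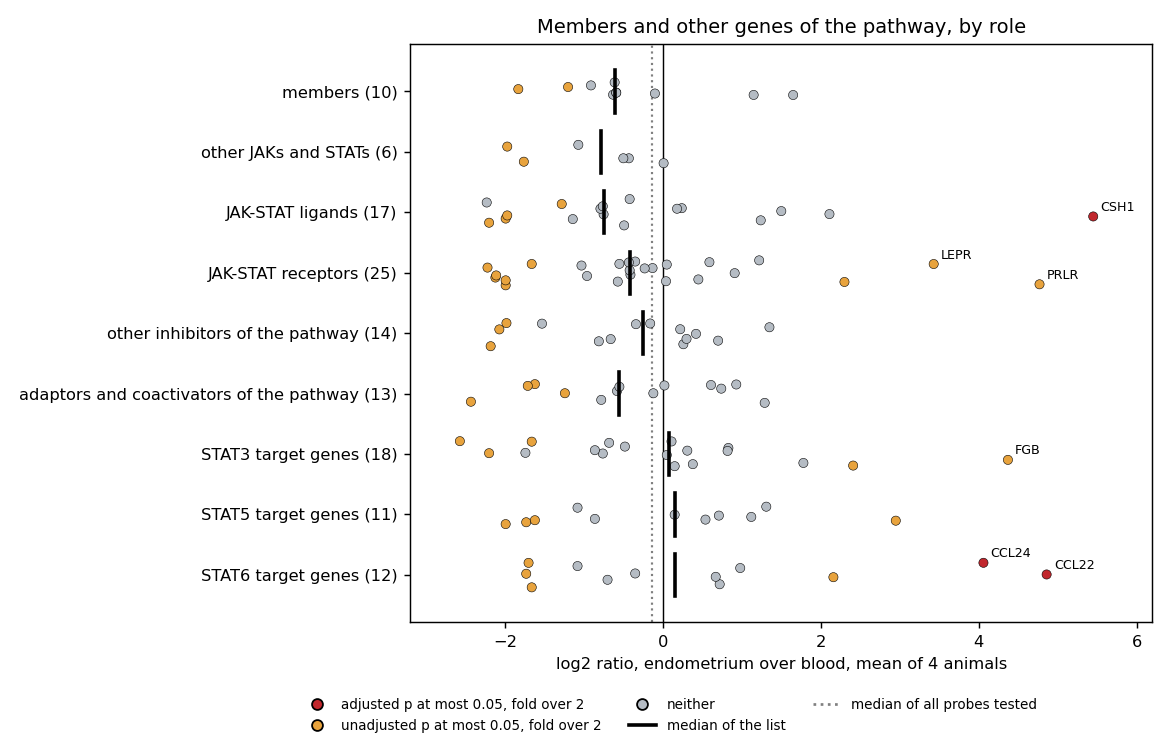
Mean log2 ratio of endometrium over blood for each gene tested, by list (number of genes in brackets), with color for the call, a bar for the median of the list and a dotted line for the median of all probes, at -0.14. CSH1, CCL22 and CCL24 pass the adjusted test, PRLR and LEPR stand apart among the receptors, and the members range from -1.83 to 1.65 (for LEPR, not above background in blood, the fitted ratio is plotted).

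Over the 8 means of animal and tissue, the probe with the pattern most like that of STAT5B was NR1H2, a liver X receptor (Pearson's r = 0.991), with the next places taken by probes without a gene name. For SOCS3 they were SULT2B1 (0.970), FBXL19 (0.965) and HSPG2 (0.965), and for CISH PSME3IP1 (0.961), MARF1 (0.947) and TXNDC9 (0.938). These are the highest of 16654 probes over 8 points that share animals and arrays, and are given as a description.

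Markers of other cell types moved with the tissue as well. The level of CD14 itself was 16.12, 5.76, 8.85 and 6.94 in blood and 14.04, 6.07, 9.5 and 7.38 in endometrium, so that animal 1 was highest in both tissues. Of 17 trophoblast markers tested, 15 were higher in endometrium at the unadjusted p and 1, PAG1, was lower (-2.10 ± 0.69). The summed level, which is the log2 of the summed intensities of the 19 on the array, was 15.71 to 17.38 in endometrium and 11.55 to 13.56 in blood. In blood, 7 of 19 were not well above background, PAG5, PAG6, PAG17 and PAG21 among them. PAG1 was the brightest of the list in blood of animals 2, 3 and 4, at 12.77, 11.11 and 10.97, and weighs on that sum. What the PAG1 probe measures was not checked beyond its name. Of 14 epithelial markers, 13 were higher, with a summed level of 15.31 to 18.57 in endometrium and 10.95 to 13.20 in blood. Of 11 stromal and endothelial markers, 7 were higher, with a summed level of 12.91 to 17.92 against 13.06 to 16.73. Of 8 B cell markers, 5 were lower in endometrium, with 13.38 to 15.82 against 14.45 to 17.12, and 2 of 8 granulocyte markers were lower and 1 higher, with 12.64 to 15.36 against 12.87 to 18.96. Of 12 markers of natural killer and T cells, 2 were higher in endometrium, with 13.63 to 18.16 against 11.36 to 17.41. Each of these 12 markers was lowest in animal 1, in blood and in endometrium. CD3E, for example, had 8.03, 14.07, 13.01 and 14.24 in blood of animals 1 to 4. The preparations of animal 1 thus differed from those of the other animals in these markers and in CD14. Of 10 monocyte and macrophage markers tested, 8 were higher, with a summed level of the 11 on the array of 15.25 to 18.92 against 12.67 to 17.73. Of 16 immediate early and heat shock genes, 8 were higher, with 18.47 to 19.51 against 17.85 to 18.83. The part of these cells, and of the enzymatic dispersal of the endometrium, in the values of the members was not tested.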

How the data were processed

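The members and the gene lists were chosen with earlier results of these data known. The authors extracted the arrays with Feature Extraction, normalized by lowess and quantiles, and deposited a table of log2 values, which was used here. The deposited scanner files gave median intensity, processed intensity and background flags. Columns of the value table were matched to scanner files by probe means, after the processed signal was put on the column's values by rank. Each of the 16 columns matched, within 0.001, not its own scanner file but the one filed under its animal's other array. The match was in the stated dye, and files were read that way. Spot by spot, 40.9% to 41% of the values were equal. Dyes were swapped between the arrays of 3 of the 4 animals, not of animal 3. Spots of a probe were averaged, with control spots left out. Spots marked as outliers were left out only for the alternative with normexp intensities. Of 21475 probes, 16654 were tested, if well above background in 4 or more of 8 channels of a tissue. No member spot was saturated. The mean log2 ratio within the animal was tested against 0 with limma 3.58.1 in R 4.3.3, with Benjamini-Hochberg adjustment over all probes tested. The labels pair the tissues by animal, and the deviations of an animal's tissues correlated with r of 0.239 to 0.628. The fit was tested on simulated data for 4 animals, with 50 changed probes at each size. At true log2 ratios of 1, 2, 3 and 4, the adjusted rule called 0, 0, 1 and 16 of them. The unadjusted rule called 19, 35, 46 and 46. In this simulation the adjusted rule thus rarely called changes of the size seen in the members. Its noise was drawn with the observed SD of each probe, and the changed probes were picked at random. It therefore does not give the power for a single member, such as one with a small SD. All member probes are named, and of the lists, called genes or the 3 largest in each direction, with IL6ST, IL4R and CSF2RB. The values of 1 further gene that the rule always names are not reported here. A probe that names and identifiers gave to 2 list genes was kept with the gene in the array's description. Gene names and neighbors came from a RefSeq gene table of a later assembly. Alternatives changed the intensities, normalization, filter, pairing, technical replicates, animals, spots and test. The number of animals, 4, each on 2 arrays, limits precision. A fold given as "at least" uses, for the dim tissue, the weakest signal that the scanner called well above background.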

Additional observations from a re-analysis of the deposited data

Results flagged for a closer look

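Each member probe was examined for an animal far from the other 3, in the levels of either tissue and in the log2 ratio, which made 33 groups of 4 values, and chance sets apart about 1 such group in 20. JAK2 in blood of animal 1 had 11.97, with a gap to the next animal of 0.951 of the whole range. SOCS2 in endometrium of animal 4 had 8.55, below the other animals by 0.849 of the range.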

How the results depend on the processing

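The direction of 10 of the 11 member ratios was the same under all 15 alternatives. That of JAK2, at -0.10, became 0.01 with the scanner's processed signal, 0.03 with technical replicate 1 alone, and -0.66 to 0.46 without each animal in turn, with 0.46 without animal 1 and 0.12 without animal 4. The number of member probes called at the adjusted p was 0, and it was 0 without each animal in turn. It was 1 (STAT5B) when the 8 arrays were fitted with the dye, a fit that takes technical replicates as values. The limma adjusted p of STAT5B lay between 0.0431 and 0.413 over the alternatives. The number higher in blood at the unadjusted p was 2, 1 with no replicate block, 3 with no filter or by the analysis of variance of the methods (the dimmer STAT5A probe being the third), and 1 to 2 without each animal. The number higher in endometrium was 0, and 1 with the 8 arrays and without animal 4, and 0 without each other animal. Over all probes, 224 passed the adjusted test, 11 with normexp intensities, 123 with no filter, 38 with no replicate block, 0 by the analysis of variance of the methods, and 0 to 180 when an animal was left out. At the unadjusted p 2670 passed, 1728 with normexp, 1612 with no replicate block, 1229 by the analysis of variance, and 1749 to 2674 when an animal was left out. The block, which pairs the tissues of an animal, changed no other call among the members. The cause was not tested. Technical replicates in blood were up to 0.72 apart for STAT6 and 0.40 for the dimmer STAT5A probe.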
